A study of Homo sapiens with 6 samples.

Results

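The transcripts described here belong to 49 target genes of the tumour suppressor p53, chosen by name. They were measured in HCT116, a cell line established from a human colorectal carcinoma that carries wild-type p53. Of the 49 genes, 29 had a probe set paired with their symbol on the whole-transcript arrays, among 14884 genes named in all, and each gene was read at its brightest probe set by the mean of the 6 arrays. The other 20 were not analysed here. They include some of the best known targets, namely MDM2, CDKN1A, FAS, GADD45A, BTG2, ZMAT3, PHLDA3, PPM1D and ANKRA2, the 4 TRAIL receptor genes TNFRSF10A to TNFRSF10D, the repair genes XPC, DDB2 and POLH, and FDXR, PERP, CYFIP2 and ABCA12. There were 3 arrays of control cells, which carry an empty vector by stable transduction, and 3 arrays of cells transduced in the same stable way to overexpress miR-196b. The titles spell the line HTC116, and the labels give the control arrays as CoOE and the others as miR1966OE with a genotype of overexpressing miR-196b. They call the arrays biological replicates without saying whether each came from its own transduction or from separate cultures, and they name neither the vector nor its promoter, so p-values measure only the spread between these samples.

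p53 is a transcription factor that is held at a low level by the ubiquitin ligase MDM2 and its partner MDM4 and is released by DNA damage and other stress. It binds response elements made of a pair of decamers and switches on genes that stop the cell cycle, repair DNA, lower oxidative damage, start apoptosis or restrain p53 itself. In unstressed cells with wild-type p53, part of this programme has a basal level that depends on p53. Many cell cycle genes go the opposite way, because p21, the product of CDKN1A, lets the DREAM repressor complex silence them.

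The mature microRNAs of the family show how closely the labelled one resembles its relatives, which matters for reading the groups. Sequences are from RefSeq on GRCh38.p14, 5′ to 3′, with the seed (bases 2 to 8 from the 5′ end) in capitals.
hsa-miR-196b-5p (MIR196B, chr7:27169528-27169549, minus strand): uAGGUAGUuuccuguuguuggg
hsa-miR-196a-5p (MIR196A2, chr12:53991762-53991783, plus strand): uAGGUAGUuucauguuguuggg
Both share the seed and differ by C12A, counted from the 5′ end of miR-196b. MIR196A1 gives the same mature sequence as MIR196A2.

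The array reads precursor transcripts, not mature microRNAs. The MIR196B probe set stood 0.08 higher on the log2 scale (SE 0.10, limma adjusted p = 0.819), while that of MIR196A2 went from 3.06 ± 0.167 to 10.6 ± 0.149 (log2 level, SD, n = 3 each). GALNT5 and HOXB7, which the series title names, had log2 changes of -1.09 and -0.64 (limma adjusted p = 0.0233 and 0.0974). Because MIR196B did not rise, the second group is called the labelled arrays below, and every direction is theirs against control. Of 5 measured epithelial markers, KRT18, EPCAM, CLDN7 and KRT19 had mean log2 levels of 10.1 to 11.3 in control, and KRT8 was at 6.72, against an array median of 4.34 to 4.37. Of the colon markers CDX2 was at 6.08 in control, CDX1 at 5.21 and GPA33 at 5.23, while VIL1 (4.13) and LGR5 (2.96) lay below the array median. Fibroblast markers DCN (2.37) and LUM (2.00) and the blood cell marker CD14 (2.96) were below it as well, THY1 was at 5.01 and CD68 at 7.71. In the labelled arrays 4 of 5 epithelial and 4 of 5 colon markers were lower, where 47.8% of all named genes were. So were 2 of 3 fibroblast and 2 of 2 blood cell markers. At an unadjusted p below 0.05, 1 epithelial and 1 colon marker were lower, KRT18 (log2 change -0.22) and CDX2 (-0.26). In the fibroblast and blood cell lists 0 were, and of all named genes 4.11% were. At an adjusted p below 0.05, 0 were (limma). KRT18 was counted at its brightest probe set. Its dimmer probe set had a log2 change of -0.10 with overlapping groups (limma unadjusted p = 0.248), so the epithelial count rests on the brightest one. The part of these markers in the results below was not tested. The mean level over a marker list was 10.1 in the control arrays and 9.93 to 10.1 in the labelled arrays for the epithelial list, and 3.08 to 3.20 against 3.06 to 3.22 for the fibroblast list.

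No p53 target passed the test: 0 of the 29 measured had an adjusted p below 0.05, where 9 of all 16098 named probe sets did (0.0559%, or 0.0605% of the 14884 genes; limma, Benjamini-Hochberg). The smallest adjusted p among them was 0.173, of APAF1, the scaffold of the apoptosome. At an unadjusted p below 0.05, 5 targets were lower in the labelled arrays, namely PLK2, TRIAP1, BAX, TIGAR and PLK3, and 2 were higher, APAF1 and KITLG. That is 17.2% lower and 6.90% higher, against 4.11% lower and 5.75% higher among all named genes. The targets were brighter than this background, at a median brightness percentile of 74.25 against 51.26. Of the 29, 24 lay in the brightest 40% of probe sets, where 6149 of the 14884 genes did. Without the dimmest 40%, 6 of 26 targets were lower at that p (5.28% of all genes left) and 2 higher. The part of brightness in these shares and in those below was not tested. The count of 5 became 3 without control replicate 3 (3.73% of all genes lower). The count of 2 became 1 without control replicate 1, control replicate 3, labelled replicate 1 or labelled replicate 2. The share of all genes higher was counted in the main fit only.

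In direction alone, 19 of the 29 were lower and 10 higher (65.5% lower, against 47.8% of all genes). The median log2 change was -0.05, beside 0.0076 over all named genes. Without control replicate 3 it was -0.08 and without labelled replicate 3 it was -0.07. The changes ran from -0.45 for PLK2 to 0.50 for APAF1, so the list held members on both sides. The 2 groups of arrays did not overlap for 10 of the 29, or 34.5%, where 17.5% of all genes were separated in this way. Of these, 6 were lower (PLK2, TRIAP1, BAX, TIGAR, PMAIP1 and NINJ1; 7.24% of all genes) and 4 higher (APAF1, TP53I11, KITLG and CMBL; 10.3% of all genes). For a single gene, permuting 3 against 3 arrays exactly (two-sided) gives 0.1 at the least, which cannot pass a threshold of 0.05.

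**Figure D1:**
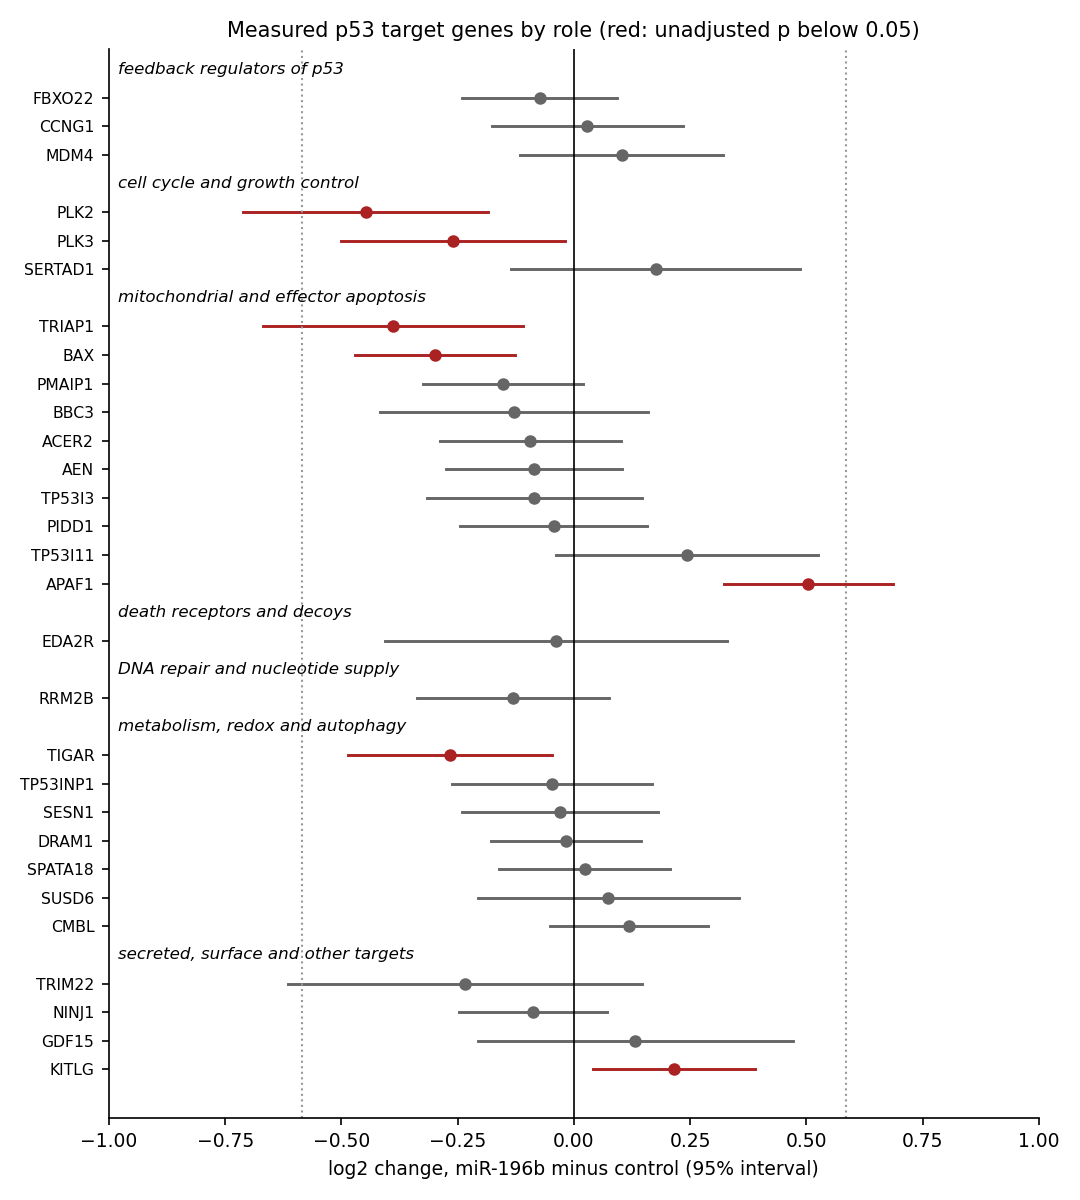
Log2 change of each measured p53 target (arrays labelled miR-196b minus control, x axis) with its 95% interval from limma, grouped by role on the y axis. Red marks an unadjusted p below 0.05, and dotted lines mark a 1.5-fold change either way. PLK2 lies farthest to the left at -0.45 and APAF1 farthest to the right at 0.50.

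The intervals limit how large a change these arrays leave room for. For 25 of the 29 targets the whole 95% interval lay within a 1.5-fold change either way (86.2%, against 88.4% of all genes). The other 4 were PLK2, TRIAP1 and TRIM22, whose intervals reached below that bound, and APAF1, whose interval reached above it. The 25 include EDA2R (4.23 in control) and SPATA18 (3.34), whose log2 levels lay below the array median of 4.34 to 4.37. There the interval bounds the array reading, and the presence of the transcript was not tested. The typical interval extended 0.21 to each side on the log2 scale. These intervals are not adjusted for the number of tests, so 0.21 is not the size that the adjusted test detects. Larger changes also missed that test, such as 0.50 for APAF1 (limma adjusted p = 0.173) and -0.45 for PLK2 (limma adjusted p = 0.359).

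Among regulators that act back on p53, MDM4, FBXO22 and CCNG1 were measured, and the groups of arrays overlapped at each. MDM4, which binds p53 and blocks its activity, read 8.87, 9.03 and 9.12 in control replicates 1 to 3 and 9.04, 9.09 and 9.21 in the labelled ones (log2 level). The difference was 0.10 on the log2 scale (95% interval -0.12 to 0.32) and ran from 0.03 (without control replicate 1) to 0.16 (without control replicate 3) with 1 array left out. CCNG1, the gene of cyclin G1, which recruits a phosphatase to MDM2, had 0.03 (-0.18 to 0.23). FBXO22, part of a ubiquitin ligase, had -0.07 (-0.24 to 0.09) at its brightest probe set and 0.05 at its other one, so its probe sets differ in sign. It was the only measured target with more than 1 probe set.

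Genes of cell cycle and growth control included the lowest of the list. PLK2, a stress-induced polo-like kinase with a role in centriole duplication, read 8.11, 8.27 and 8.39 in the control arrays and 7.68, 7.98 and 7.77 in the labelled arrays (log2 level). All 3 labelled arrays lay below all 3 control arrays, the closest pair 0.13 apart. The means were 8.26 ± 0.142 and 7.81 ± 0.158 (log2, SD, n = 3 each). PLK2 was thus 1.36-fold lower (log2 change -0.45, SE 0.11, limma adjusted p = 0.359). The related kinase gene PLK3, also induced by stress, read 7.54, 7.63 and 7.67 in control and 7.22, 7.29 and 7.55 in the labelled arrays (log2 level). Labelled replicate 3 reached into the control range, so the groups overlapped. PLK3 was 1.20-fold lower (log2 change -0.26, SE 0.10, limma adjusted p = 0.485). SERTAD1, a regulator of cyclin D kinases and E2F, was on the other side at 0.18 with overlapping groups (95% interval -0.13 to 0.49), and ran from 0.06 (without labelled replicate 3) to 0.27 (without control replicate 3) with 1 array left out. CDKN1A, GADD45A and BTG2 share this role and were not analysed here.

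The largest measured set held genes of mitochondrial and effector apoptosis. Of its 10 members 8 were lower in direction (80.0%, against 47.8% of all genes). At an unadjusted p below 0.05, 2 of the 10 were lower (against 4.11% of all genes) and 1 was higher (against 5.75%). The groups of arrays did not overlap for 5 of the 10, where 17.5% of all genes were separated. Of these 5, 3 were lower and 2 higher. BAX, which opens pores in the outer mitochondrial membrane, read 7.89, 7.91 and 7.99 in control and 7.70, 7.61 and 7.60 in the labelled arrays (log2 level). The groups were 0.19 apart at their closest, and the within-group SDs were among the small ones of the list (0.0543 and 0.0564, n = 3 each). BAX was 1.23-fold lower (log2 change -0.30, SE 0.07, limma adjusted p = 0.352). TRIAP1, a small protein that carries phosphatidic acid between the mitochondrial membranes and protects from apoptosis, read 7.56, 7.67 and 7.62 in control and 7.43, 7.27 and 6.98 in the labelled arrays (log2 level). Its labelled arrays were spread more widely, at 7.23 ± 0.226 against 7.62 ± 0.0529 (log2, SD, n = 3 each), and still did not overlap with control. TRIAP1 was 1.31-fold lower (log2 change -0.39, SE 0.12, limma adjusted p = 0.407). BAX and TRIAP1 stood on the same side although their known roles in apoptosis are opposite.

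APAF1, which joins with cytochrome c to activate caspase 9, was the target with the smallest p and went the other way. It read 7.37, 7.54 and 7.44 in control and 7.97, 7.91 and 7.99 in the labelled arrays (log2 level). The groups were 0.37 apart at their closest, the widest gap of the list. The means were 7.45 ± 0.0865 and 7.96 ± 0.0424 (log2, SD, n = 3 each). APAF1 was 1.42-fold higher (log2 change 0.50, SE 0.08, limma adjusted p = 0.173). It passed when the dimmest 40% of probe sets were left out (limma adjusted p = 0.0405) and when the variance prior was trended and robust (limma adjusted p = 0.00571), and its adjusted p ranged from 0.00571 to 0.493 across the alternatives.

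PMAIP1 and BBC3 encode BH3-only proteins, which set BAX free to act. PMAIP1, the gene of NOXA, read 8.39, 8.27 and 8.38 in control and 8.16, 8.20 and 8.23 in the labelled arrays (log2 level). The groups were separated by 0.04, and the log2 change of -0.15 had a 95% interval of -0.32 to 0.02. BBC3, the gene of PUMA, read 6.08, 5.70 and 5.98 in control and 5.92, 5.64 and 5.82 in the labelled arrays (log2 level). Those ranges overlapped, with a log2 change of -0.13 (95% interval -0.42 to 0.16), which ran from -0.24 (without control replicate 2) to -0.05 (without control replicate 1) with 1 array left out. TP53I11 was at 0.24 (95% interval -0.04 to 0.53), and its groups were separated by 0.0061. With 1 array left out it ran from 0.14 (without labelled replicate 1) to 0.31 (without labelled replicate 3). The other log2 changes were -0.09 for the ceramidase gene ACER2, -0.09 for the nuclease gene AEN, -0.08 for the oxidoreductase gene TP53I3 and -0.04 for PIDD1, a death domain scaffold, all with overlapping groups.

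**Figure D2:**
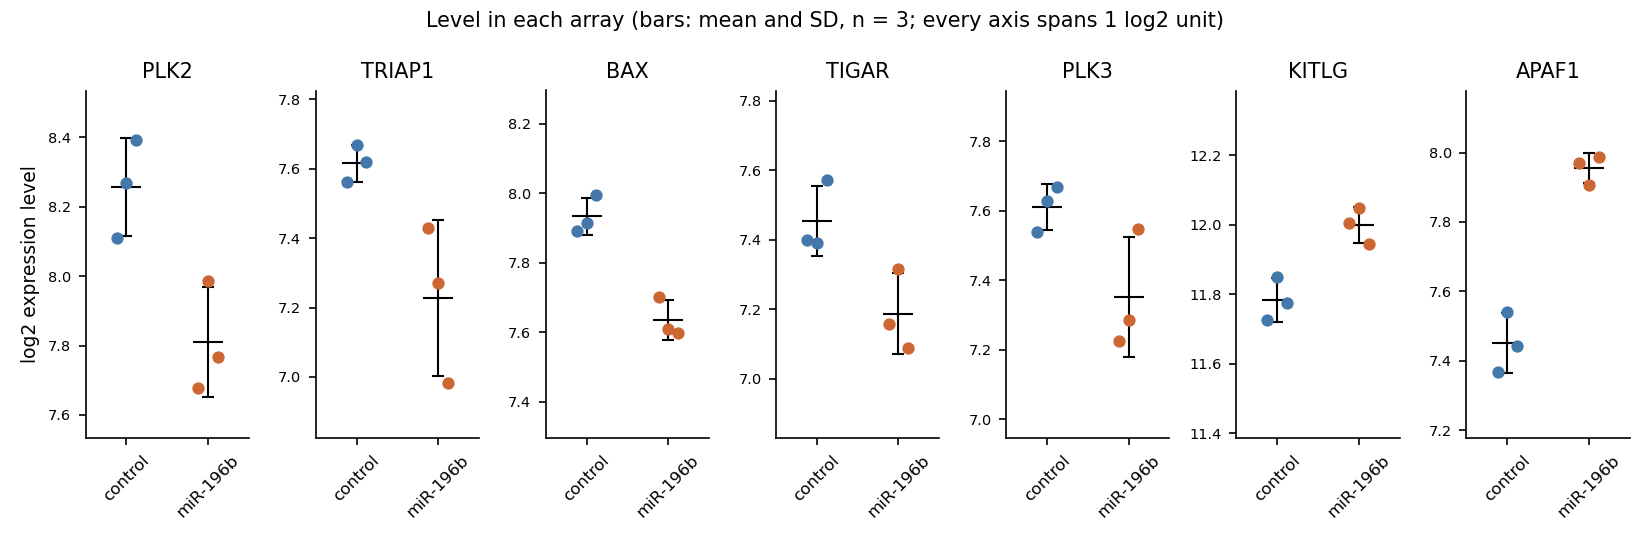
Log2 level of the 7 targets with an unadjusted p below 0.05, in each control (blue) and each labelled (orange) array; black bars give the mean and SD of 3 arrays, and every y axis spans 1 log2 unit. The arrays of the 2 groups overlap for PLK3 only, and APAF1 has the widest gap (0.37).

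Death receptors and DNA repair were nearly out of reach. Of 6 receptor genes only EDA2R was measured, a receptor for the A2 form of ectodysplasin, and its probe set lay in the dimmest 40%. It differed by -0.04 on the log2 scale (95% interval -0.41 to 0.33). Of 4 genes of repair and nucleotide supply only RRM2B was measured, the p53-inducible small subunit of ribonucleotide reductase. It read 8.12, 8.25 and 8.30 in control and 8.09, 8.20 and 7.99 in the labelled arrays (log2 level). Its groups overlapped, and the log2 change was -0.13 (95% interval -0.34 to 0.08).

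Genes of metabolism, redox balance and autophagy had 1 member past an unadjusted p of 0.05 out of 7 measured (14.3%, against 9.86% of all genes). TIGAR, which lowers fructose-2,6-bisphosphate and so slows glycolysis, read 7.40, 7.39 and 7.57 in control and 7.16, 7.32 and 7.09 in the labelled arrays (log2 level). The groups were 0.08 apart, with means of 7.45 ± 0.102 and 7.19 ± 0.117 (log2, SD, n = 3 each). TIGAR was 1.20-fold lower (log2 change -0.27, SE 0.09, limma adjusted p = 0.448). SESN1, an inhibitor of mTORC1 signalling, was at -0.03, the autophagy genes TP53INP1 and DRAM1 were at -0.05 and -0.02, and SUSD6 was at 0.07. DRAM1 repeated closely in control, at 7.17 ± 0.0060 (log2, SD, n = 3), and its 95% interval of -0.18 to 0.14 was among the narrowest. The hydrolase gene CMBL was at 0.12 with separated groups, and SPATA18, a gene of mitochondrial quality control, was at 0.02 with a probe set in the dimmest 40%.

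Secreted and surface products were split between higher and lower. KITLG, the ligand of the receptor KIT, was one of the brightest probe sets of the array and read 11.73, 11.85 and 11.77 in control and 12.01, 12.05 and 11.95 in the labelled arrays (log2 level). The lowest labelled array stood 0.09 above the highest control. KITLG was 1.16-fold higher (log2 change 0.22, SE 0.07, limma adjusted p = 0.438). It passed when the variance prior was trended and robust (limma adjusted p = 0.0498), and its adjusted p ranged from 0.0498 to 0.665 across the alternatives.

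GDF15, a stress-induced cytokine often used as a readout of p53 activity, read 9.97, 9.77 and 9.84 in control and 9.86, 9.80 and 10.32 in the labelled arrays (log2 level). Labelled replicate 3 was the high one, and the other two lay within the control range. The log2 change was 0.13 (95% interval -0.21 to 0.47) and turned to -0.03 without that array. NINJ1, which ruptures the plasma membrane of dying cells, was at -0.09 with groups 0.03 apart. The interferon-inducible gene TRIM22 was at -0.23 with a wide interval of -0.61 to 0.15 and a probe set in the dimmest 40%, and was at -0.08 without labelled replicate 2 and at -0.40 without labelled replicate 1.

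Array by array, the targets as a list stood a little higher in control. The median deviation of the 29 targets from their own 6-array means was 0.04, 0.02 and 0.06 in control replicates 1 to 3 and -0.06, -0.0045 and -0.03 in labelled replicates 1 to 3 (log2 difference). Over all named genes the same median lay between -0.02 and 0.01. In each control array 12 of 29 targets were below their own mean, and in the labelled arrays 18, 16 and 18 were. Each mean was taken over the same 6 arrays, so the control and labelled values tend to mirror each other. They largely restate the direction count above. The within-group SD of a single target was 0.10 (median over 29, against 0.13 over all genes).

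**Figure D3:**
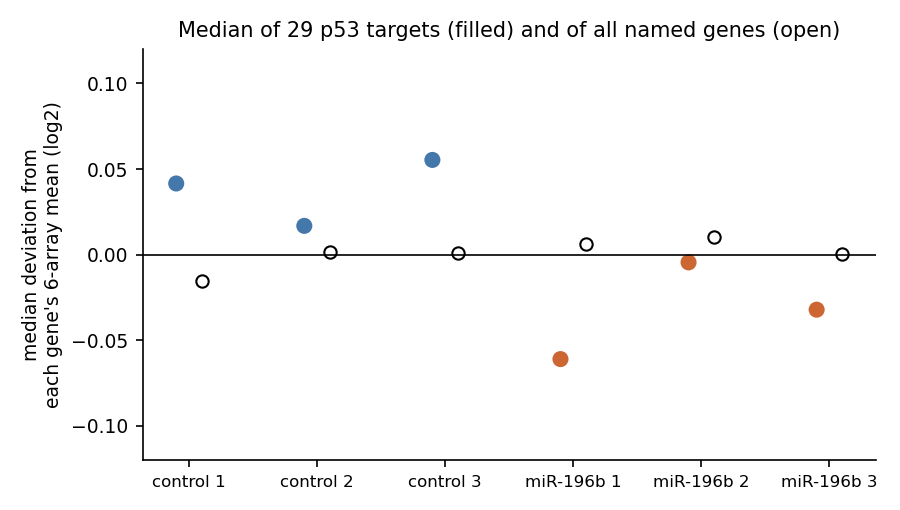
Median deviation from each gene's own 6-array mean (log2, y axis) in each array, for the 29 p53 targets (filled; blue control, orange labelled miR-196b) and for all named genes (open). The filled points run from 0.06 in control replicate 3 to -0.06 in labelled replicate 1, and the open points stay between -0.02 and 0.01.

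Other genes of the pathway were read from 3 further lists. Regulators upstream of p53 had 0 of 14 measured genes past an adjusted p of 0.05, 1 higher and 0 lower at an unadjusted p below 0.05 (7.14% higher, against 5.75% of all genes, and 4.11% lower), and a median log2 change of 0.02. TP73, a p53 relative, was the one, at 0.22 (limma adjusted p = 0.466). The checkpoint kinase gene CHEK2 was at 0.14 at its brightest probe set and at -0.16 at another, and the kinase gene HIPK2 was at 0.10 and the damage mediator gene MDC1 at 0.06. Of 21 genes on that list 7 were not analysed here, ATM among them.

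A second list of p53 targets had 0 of 17 measured genes past an adjusted p of 0.05. At an unadjusted p below 0.05, 2 were lower and 2 higher (11.8% each way, against 4.11% and 5.75% of all genes). In direction 11 of the 17 were lower (64.7%, against 47.8% of all genes), with a median of -0.07. SFN, the gene of 14-3-3 sigma, which holds back entry into mitosis, had the smallest p at -0.30 with an SE of 0.08 (limma adjusted p = 0.360), and its groups were separated. TLR3, a sensor of double-stranded RNA, was at -0.22. The transcriptional repressor gene BCL6 was at 0.24 and the cytokine gene LIF at 0.26.

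Cell cycle genes that p53 lowers through p21 and DREAM had 23 of 28 measured members higher and 5 lower (17.9% lower, against 47.8% of all genes), with small changes. Their median was 0.04, and they ran from -0.16 for AURKA, a mitotic kinase gene, to 0.20 for CDC25C, the phosphatase gene that activates CDK1. At an unadjusted p below 0.05, 1 was higher (3.57%, against 5.75% of all genes) and 0 lower (against 4.11%), and 0 passed the adjusted test. CDC25C was that one (limma adjusted p = 0.434), followed by TOP2A, a topoisomerase gene, at 0.12, AURKA, and E2F1 at 0.11. For all 28 the 95% interval lay within a 1.5-fold change either way. The growth rate of the cells was not tested.

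**Figure D4:**
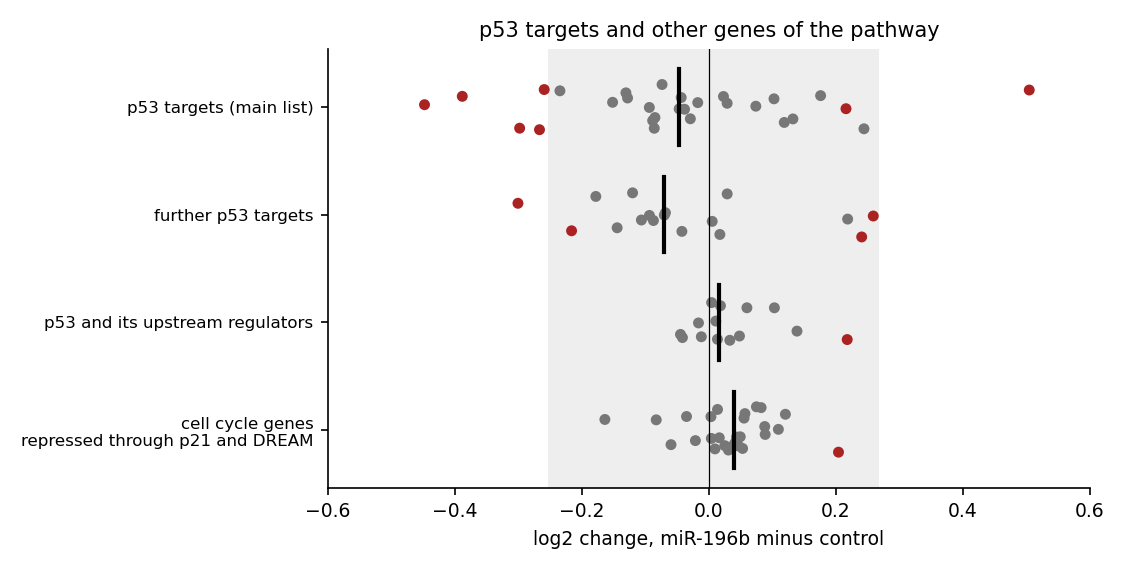
Log2 change of each measured gene (arrays labelled miR-196b minus control, x axis) in the p53 target list and 3 further lists of the pathway (y axis, points spread vertically for sight only). Red marks an unadjusted p below 0.05, black bars are list medians (-0.05, -0.07, 0.02 and 0.04 from top to bottom), and the grey band holds the middle of all named genes, from the 5th percentile (-0.25) to the 95th (0.27).

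Promoter windows from RefSeq (GRCh38.p14, 250 bases before to 50 after the gene start) were found for 24 of the 29 measured targets and searched for p53 decamers. An exact match to the p53 decamer consensus, which reads the same on both strands, occurred in 2 of the 24 windows (8.3%). The share was 6.0% of the 10749 windows of array genes and 6.5% of all 27305 windows. The 2 were PLK2, the lowest target of the list, and AEN, which had a log2 change of -0.09. They are shown because they hold a match, with the matched decamers in capitals. A link between a match and the change of its gene was not tested.
PLK2 (chr5:58460199-58460228, minus strand): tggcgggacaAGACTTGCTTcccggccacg
AEN (chr15:88621301-88621330, plus strand): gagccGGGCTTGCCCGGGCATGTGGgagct
The AEN stretch holds a pair of decamers with 0 bases between them and 2 mismatches to the consensus in all. Such a pair, with at most 2 mismatches, both cores kept and up to 13 bases between, was found in 1 of 24 target windows (4.2%). It was found in 2.5% of the windows of array genes and in 2.9% of all windows. The windows of BAX, TRIAP1, TIGAR, PLK3, APAF1 and KITLG held no match. A match is a description of these letters, and many p53 response elements lie outside such a window.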

How the data were processed

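Total RNA of 6 samples was labelled with a whole-transcript kit and measured on expression arrays. The deposited values are log2 expression levels, 1 per probe set and array, for 53617 probe sets. The submitters' processing notes name Partek 6.6 and RMA, without order or options. The base of 2 was taken from RMA's usual output. RMA's quantile step removes overall differences between arrays. The genome build is not given in the sources used here.

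Probe sets were named through the platform annotation: 16098 had 1 symbol, and the other 37519 had no single symbol here. Deposited values of the 16098 were fitted without filter in R 4.3.3 with limma 3.58.1 (lmFit, eBayes, no trend, not robust), labelled arrays minus control, with Benjamini-Hochberg adjustment over all 16098 at 0.05. Unadjusted p-values and 95% intervals are from the same fit, which was tested on simulated data. A gene was read at its brightest probe set.

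The targets, roles and lists were chosen with earlier results of these data known. Every measured target is named; array values are given for those with an unadjusted p below 0.05 and for fixed readouts, and up to 4 genes with the smallest p are named per further list. Array values of MDM4, PMAIP1 and RRM2B were added after their values were seen. Alternatives were a filter on dim probe sets, another variance prior, median centring, repeated quantile normalization, array weights, a replicate block, each array left out, all probe sets, and averaging the probe sets of each gene. No batch label was used here.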

Additional observations from a re-analysis of the deposited data

How the results depend on the processing

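The number of named probe sets called was 9, and it was 22 without the dimmest 40%, 91 with a trended, robust variance prior, 1 with the replicate number as a block, and 2 to 3 with any array left out. The number of p53 targets called was 0, and it was 1 (APAF1) without the dimmest 40%, 2 (APAF1 and KITLG) with a trended, robust variance prior, 0 with the replicate block and 0 to 0 with any array left out. Targets lower at an unadjusted p below 0.05 numbered 3 to 5 with an array left out, where 3.44% to 4.26% of all genes were lower. Under the other alternatives they numbered 4 to 6, where 2.83% to 5.28% of all genes were lower. Targets higher numbered 1 to 2 with an array left out and 2 to 3 otherwise. The shares of all genes higher or separated were counted in the main fit only. The median log2 change of the targets ran from -0.0784 to -0.0364 with an array left out, and it was below 0 under every alternative. The variance prior, the replicate block and the fit of all probe sets cannot move this median. Separated targets numbered 11 to 15 with an array left out, where fewer arrays separate more easily, and 9 to 10 otherwise. Same-numbered arrays deviated together at r = 0.03, 0.04 and 0.0085, and arrays of unlike number at r from -0.0521 to 0.0198. Of the 6 arrays, 4 correlated best with their own number. These values do not decide whether the numbers are pairs, and the main fit did not take them as pairs. All 29 targets kept their direction outside the fits that leave out an array. For the variance prior, the replicate block and all probe sets this was fixed in advance, because the log2 changes stay the same. It was also fixed for the filter on dim probe sets, which held 26 of the targets. Averaging probe sets could move FBXO22 only. With an array left out, 9 turned in at least 1 such fit, over ranges of -0.15 to 0.0876 (EDA2R), -0.0364 to 0.074 (CCNG1), -0.13 to 0.0167 (TP53INP1), -0.10 to 0.0182 (SESN1), -0.0184 to 0.0617 (SPATA18), -0.0352 to 0.0118 (DRAM1), -0.16 to 0.0060 (TP53I3), -0.10 to 0.0193 (PIDD1) and -0.0294 to 0.23 (GDF15). The cause of these differences between settings was not tested. The precision is limited by 3 arrays a group, and 3 targets lay in the dimmest 40% of probe sets.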
